A study of Mus musculus with 9 samples.

Results

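The genes described here encode integrins, laminins and nidogens, measured as poly-A RNA in the mouse embryonic stem cell line E14. Members were chosen by symbol among protein-coding genes of the GENCODE M21 annotation: 18 integrin alpha, 8 integrin beta, 5 laminin alpha, 3 laminin beta, 3 laminin gamma and 2 nidogen genes. These are 39 of 35896 genes with a transcript in the deposited tables. The 9 libraries fall into 3 groups of 3. Control +LIF2i cells stayed in medium with the cytokine LIF, 1 µM of the MEK inhibitor PD0325901 and 1 µM of CHIR99021, which inhibits glycogen synthase kinase 3 beta. Control -LIF2i cells went 72 h without all of these. CK666 -LIF2i cells went 72 h without them and with 80 µM CK666. This drug inhibits Arp2/3, the complex that starts new actin branches. All groups are cells of 1 line, and their protocol names dishes coated with 0.2% gelatin and medium with 15% serum. The drug was dissolved in DMSO; whether control cultures got the solvent is not given, so drug and solvent cannot be told apart.

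Laminins are secreted trimers of an alpha, a beta and a gamma chain that polymerise into the basement membrane sheet, and nidogens link that sheet to type IV collagen. Integrins are alpha-beta heterodimers in the plasma membrane. They bind laminins, fibronectin or collagens outside the cell and, through adaptors such as talin and kindlin on the beta tail, actin filaments inside it. In the early mouse embryo a laminin-rich basement membrane underlies the epiblast, and self-renewing embryonic stem cells in culture deposit laminin and fibronectin of their own.

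The library totals ran from 16894327 to 22550952 estimated counts. Levels of different genes are compared as TPM, which divides by transcript length; the same gene is compared between groups as CPM, estimated counts scaled to library size with TMM. Replicate numbers were treated as pairs, and a gene was called at an edgeR adjusted p under 0.05 over 14648 tested genes. Replicate 1 libraries stand apart from the others in all 3 groups, with 15690 to 17605 genes above 0 against 18166 to 18749 in replicates 2 and 3; calls that change without all 3 of them are given with and without. The pluripotency marker list summed to between 3912 and 4273 TPM with LIF2i, 2377 to 2784 TPM in controls without LIF2i and 2041 to 2726 TPM with CK666. In these bulk samples, fewer cells of a type and less RNA per cell cannot be told apart.

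Of the 39 members, 31 passed edgeR's expression filter. LIF2i withdrawal changed 21 of them: 9 were raised and 12 lowered, all in 3 of 3 replicate pairs, where 40.7% of all tested genes were called, 21.1% raised and 19.7% lowered. The groups did not overlap for 10 members that were higher and 12 that were lower after withdrawal, beside 21.5% and 19.2% of all genes. The median log2 fold change was 0.20 over the tested members and 0.01 over all tested genes. For CK666 against controls without LIF2i, edgeR called 0 of the 31 and 2.04% of all tested genes. DESeq2 with the replicate block called 3 members there, beside 7.76% of all genes. Between CK666 cells and self-renewing cells 22 members were called, 11 in each direction, beside 36.9% of all tested genes (19.8% raised, 17.1% lowered). There 13 members were higher and 10 lower without overlap, beside 20.5% and 16.8% of all genes. Without the replicate block 17 members were called in each comparison with self-renewal, beside 24% of all genes for withdrawal and 20.2% for CK666. In 1 group only were all 3 libraries of Itga1, Itgae, Itgal, Itgb8 and Lamc3 above the filter's level of 0.541 CPM, so a member like Itga1 passed through the group where it was high.

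**Figure D1:**
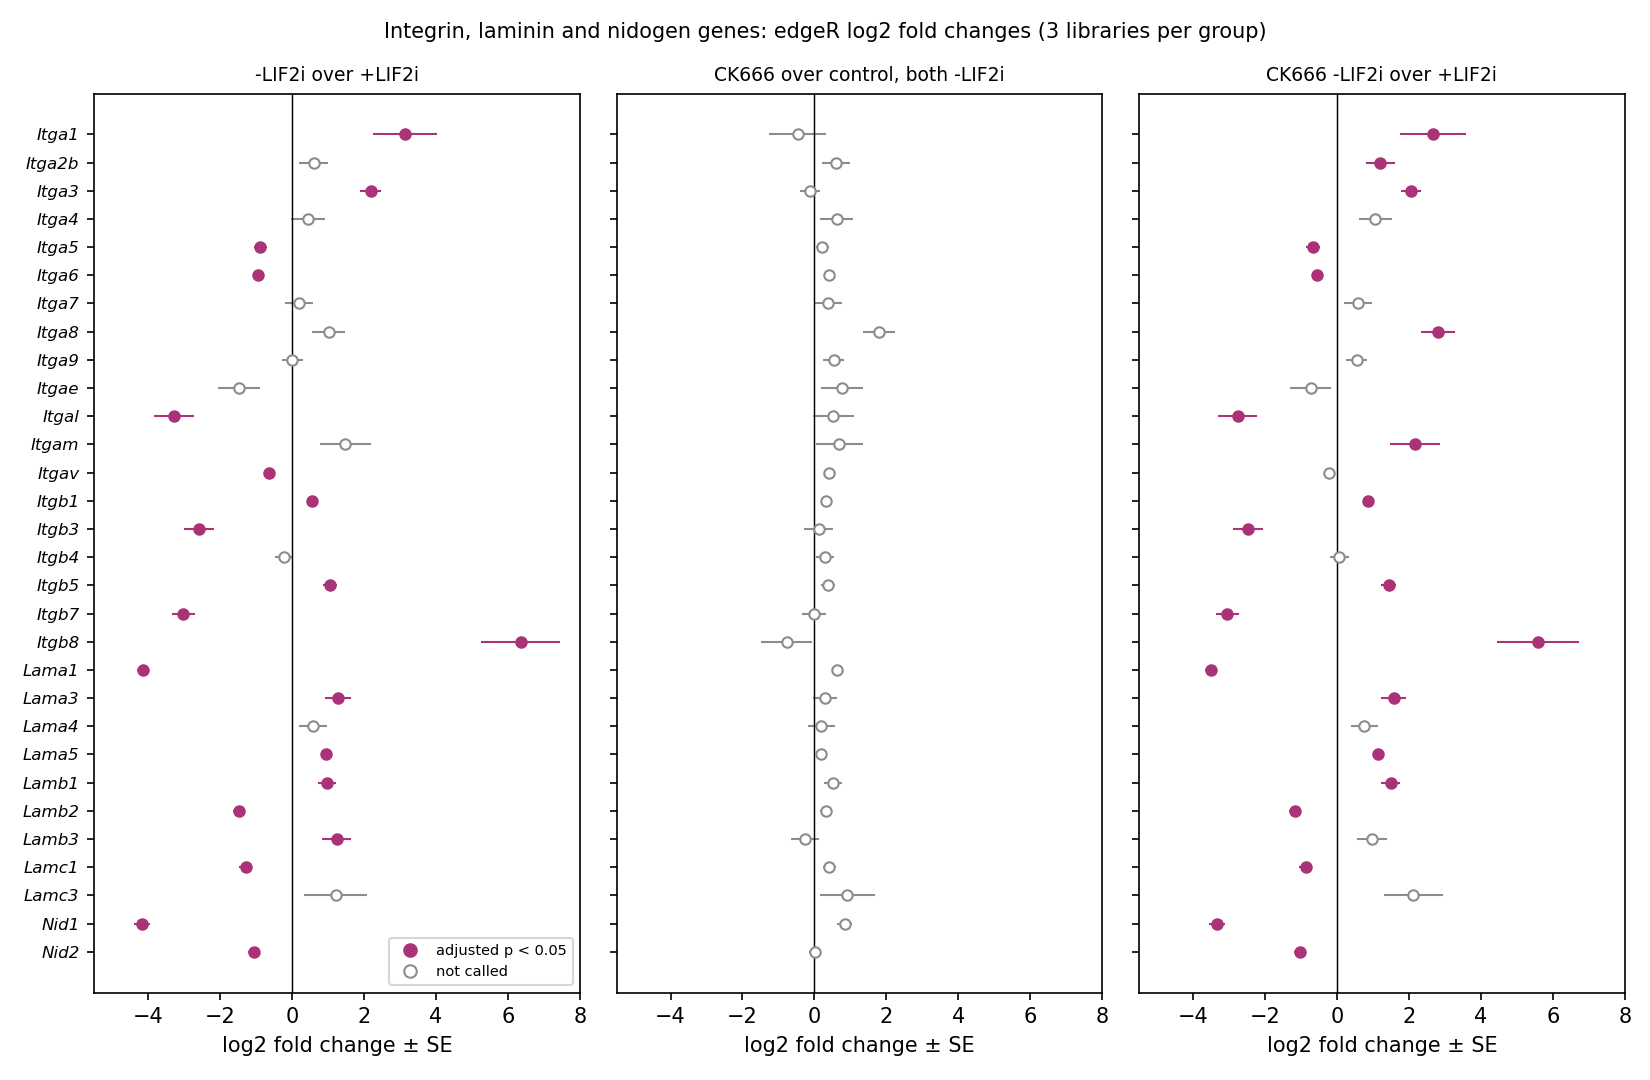
Log2 fold changes with standard errors (x axis) of tested members (y axis) in the 3 comparisons, each from 3 libraries per group; filled points have an edgeR adjusted p under 0.05. The left and right panels hold filled points on both sides of 0 with Nid1 and Lama1 lowest, and the middle panel, CK666 against controls without LIF2i, holds none.

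The laminin alpha chains moved in opposite directions on withdrawal. Lama1 encodes the alpha chain of the laminin that is the first to appear in the embryo. The gene lies on chromosome 17 (67697259 to 67822647, GRCm38). It was at 342, 186 and 212 CPM in replicates 1 to 3 with LIF2i, at 19.3, 13.2 and 9.34 CPM in controls without it, and at 27.4, 16.6 and 20.1 CPM with CK666. Every library with LIF2i lay above every library without it. The fall was 17.6-fold (log2 -4.14, SE 0.17, edgeR adjusted p 1.4e-06). Lama5 encodes the alpha chain that is widespread in later epithelial basement membranes. It lies on chromosome 2 (180176373 to 180225859). Its CPM was 208, 325 and 312 with LIF2i, 416, 622 and 598 in controls without it, and 588, 582 and 664 with CK666. The groups with and without LIF2i did not overlap, and Lama5 rose by 0.96 on the log2 scale (SE 0.14, edgeR adjusted p 0.00079). Lama3, the alpha chain of the laminin that anchors stratified epithelia, was low in every library: 1.77, 2.04 and 1.21 CPM with LIF2i, 2.46, 6.18 and 4.26 CPM without it, and 3.55, 7.42 and 4.80 CPM with CK666. Its call (log2 1.28, SE 0.35, edgeR adjusted p 0.018) was lost without the replicate block (0.057) and without either the replicate 2 or the replicate 3 library of either control group (0.075 to 0.085; 0.0021 to 0.19 over the 18 alternatives). Lama4, at 1.52 to 4.02 CPM, was not called (log2 0.58, SE 0.38, edgeR adjusted p 0.26), and Lama2 did not pass the filter.

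Per length, the 2 main alpha chains differed between the groups in their shares. Lama1 held 65.3%, 40.7% and 49.5% of the summed TPM of the 5 alpha genes with LIF2i, against 2.17% to 5.77% in controls without LIF2i and 3.20% to 5.13% with CK666. Lama5 held 46.9% ± 12.7 (SD, n = 3) with LIF2i, 93.3% ± 0.70 in controls without it and 93.0% ± 1.33 with CK666. With LIF2i, the order of the 2 genes was not fixed: Lama1 was above Lama5 in replicate 1 (61.2 against 30.9 TPM), below it in replicate 2 (24.0 against 34.3 TPM) and at the same level in replicate 3 (35.7 against 35.6 TPM). With long coding transcripts only, Lama1 held 44.3% and Lama5 54.8% of alpha chain TPM in that library, and 6.93 TPM of Lama1 belonged to a processed transcript, Lama1-202, of 565 bases. The summed TPM of all 5 alpha genes was 74.9 ± 17.5 with LIF2i, 85.6 ± 7.54 without it and 80.9 ± 8.17 with CK666 (n = 3 each), ranges that overlap.

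**Figure D2:**
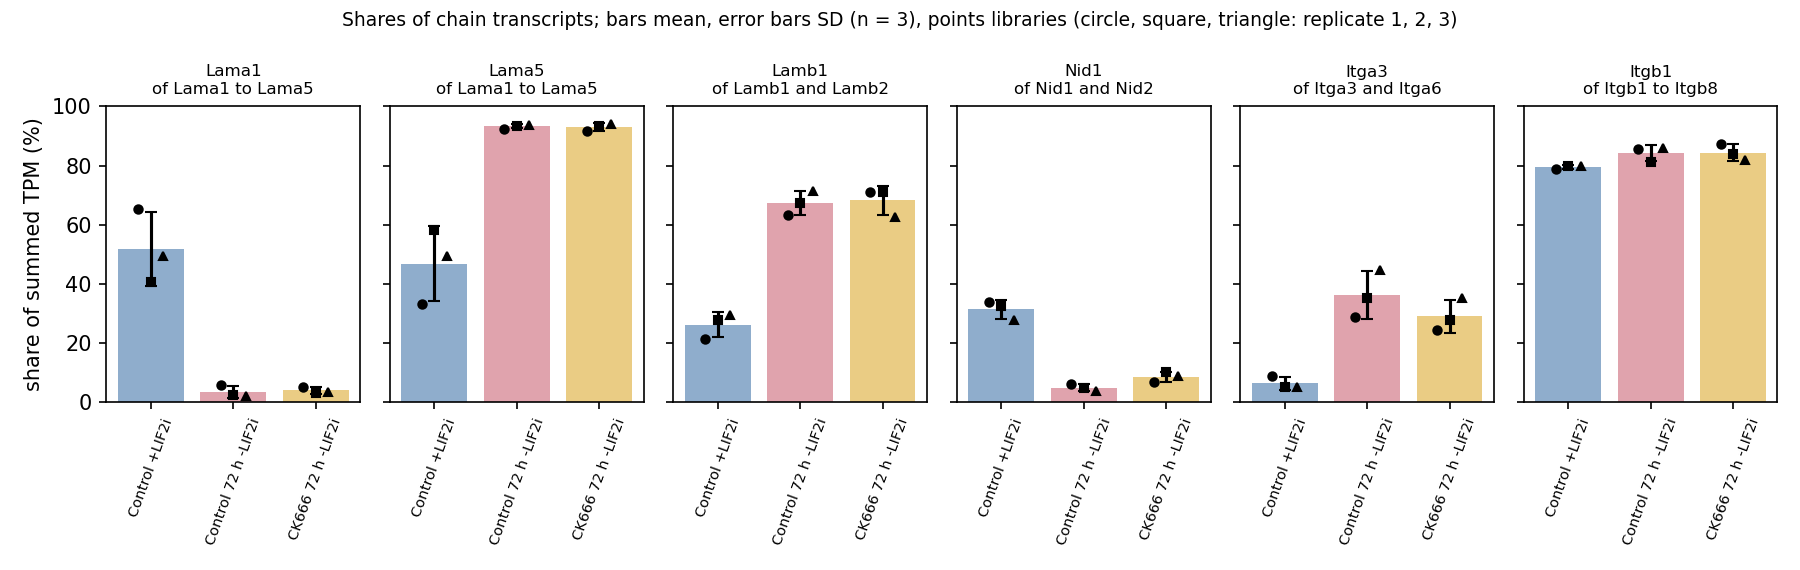
Share of the summed TPM (y axis, percent) held by the first-named gene in each control group and with CK666; bars are means, error bars SD (n = 3), points single libraries. Between the control groups Lama1 went from a mean of 51.8% to 3.44% of alpha chain TPM and Lamb1 from 26.2% to 67.4% of Lamb1 and Lamb2, while Itgb1 stayed between 78.7% and 87.4% of integrin beta transcripts in all 9 libraries.

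Of the beta chains, Lamb2 fell and Lamb1 and Lamb3 rose. Lamb2 encodes a beta chain known from the glomerular and synaptic basement membranes. It was at 77.8, 101 and 91.8 CPM with LIF2i and at 29.2, 31.6 and 37.3 CPM without it, with no overlap, a 2.77-fold fall (log2 -1.47, SE 0.17, edgeR adjusted p 0.00016). With CK666 it was at 41.4, 31.5 and 48.8 CPM. Lamb1, the beta chain of the early embryonic laminin, was at 36.0, 58.5 and 58.3 CPM with LIF2i and at 79.5, 85.7 and 142 CPM without it. It rose by 0.98 (SE 0.25, edgeR adjusted p 0.014); the call was lost without the LIF2i library of replicate 1 (0.064) or 3 (0.067) and without the control library of replicate 3 lacking LIF2i (0.0745; 0.00041 to 0.12 over the 18 alternatives). CK666 libraries had 176, 104 and 146 CPM of Lamb1. In TPM, Lamb1 held 26.2% ± 4.36 of both beta genes with LIF2i, 67.4% ± 4.15 in controls without it and 68.2% ± 4.95 with CK666 (SD, n = 3). Lamb3, the partner of Lama3 in epithelial anchorage, was at 1.87, 2.09 and 1.15 CPM with LIF2i, 3.14, 5.76 and 3.67 CPM without it and 1.61, 5.27 and 3.91 CPM with CK666. Its call (log2 1.24, SE 0.41, edgeR adjusted p 0.038) held in 8 of 18 alternatives, and was lost without the block (0.092). It was also lost without any 1 control library other than replicate 1 with LIF2i (0.098 to 0.15) and without the CK666 library of replicate 2 (0.065; 0.0048 to 0.24 over the 18 alternatives).

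Lamc1 and both nidogen genes fell on withdrawal. Lamc1 encodes the gamma chain of most laminin trimers. It was at 1046, 588 and 559 CPM with LIF2i, 286, 322 and 257 CPM without it and 487, 368 and 324 CPM with CK666. Groups with and without LIF2i did not overlap, and the fall was 2.44-fold (log2 -1.28, SE 0.18, edgeR adjusted p 0.00048). Lamc3 was at 0.16 to 1.66 CPM and was not called by edgeR. Between CK666 and self-renewing cells it was at 2.13 on the log2 scale (SE 0.82, edgeR adjusted p 0.071). DESeq2 with the replicate block called it there (2.13, DESeq2 adjusted p 0.046), where 5889 genes were called.

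Nid1 (chromosome 13, 13437551 to 13512269) had a fall as large as that of Lama1. Its CPM was 474, 515 and 355 with LIF2i, 20.5, 30.8 and 24.8 without it and 28.7, 60.2 and 49.4 with CK666. The lowest library with LIF2i, at 355 CPM, lay above the highest without it, at 60.2 CPM, and the change was 18.0-fold (log2 -4.17, SE 0.22, edgeR adjusted p 4.1e-06). Nid2, the second nidogen, was at 707, 696 and 600 CPM with LIF2i, 239, 366 and 378 CPM without it and 298, 348 and 338 CPM with CK666. It fell 2.07-fold (log2 -1.05, SE 0.16, edgeR adjusted p 0.00094). In TPM Nid2 was the higher of both genes in all 9 libraries, with Nid1 at 27.8% to 33.7% of their sum with LIF2i and 3.85% to 5.93% in controls without it. With CK666 Nid1 held 6.77% to 10.1%, above all 3 of those controls. The summed nidogen TPM was 332 ± 62.6 with LIF2i, 127 ± 29.1 without it and 122 ± 11.9 with CK666.

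**Figure D3:**
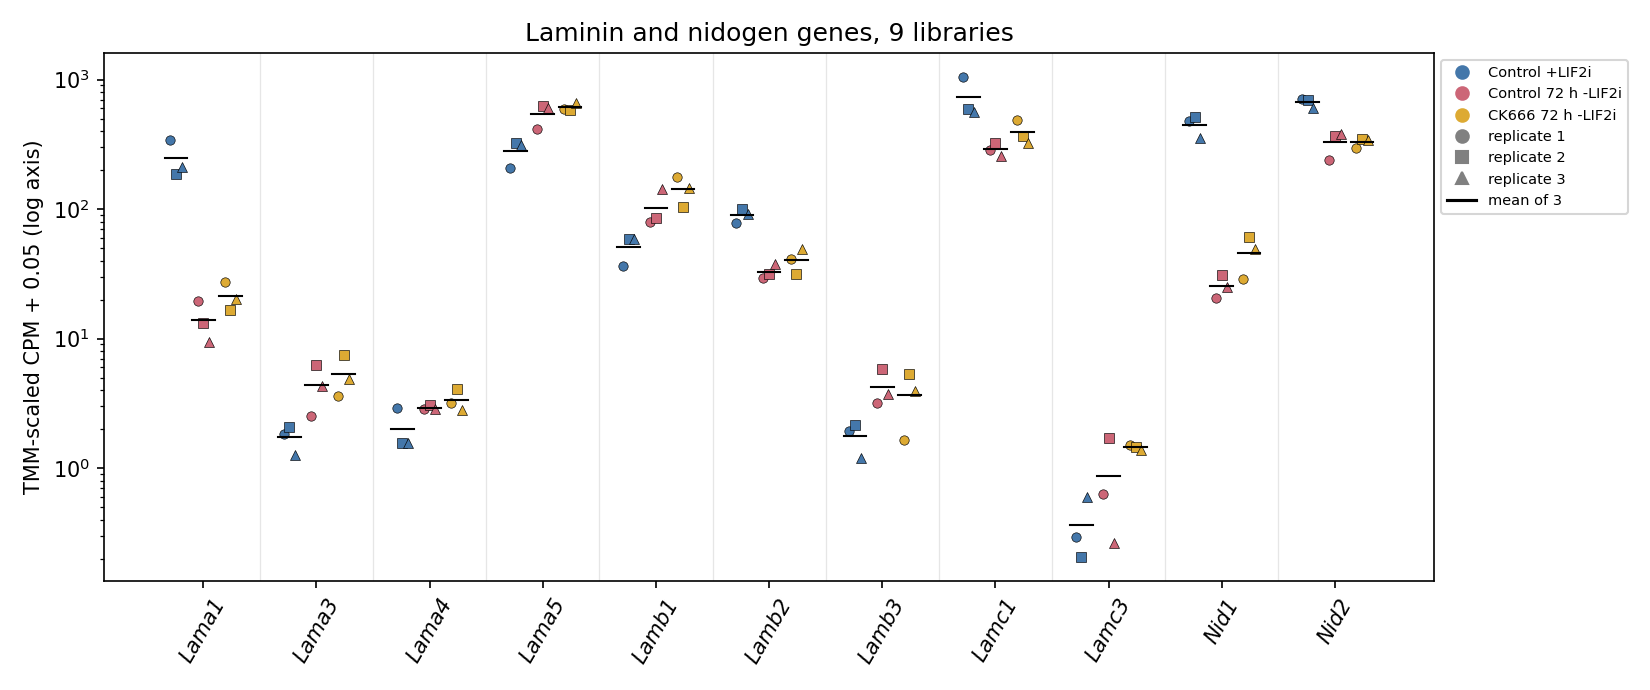
TMM-scaled CPM plus 0.05 (log y axis) of tested laminin and nidogen genes (x axis) in the 9 libraries; colours are groups, symbols replicate numbers and bars means of 3. Lama1 and Nid1 lie between 186 and 515 CPM with LIF2i and at 60.2 CPM or less without it, while Lama5 and Lamb1 sit higher without LIF2i.

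Promoters of 24 of the 39 members were matched by symbol in RefSeq's table (GRCm38.p6), which holds 250 bases before to 50 after a start. The 4 shown belong to members that fell (Nid1, Itgb7) and that rose (Itga3, Lama5), chosen after their values were seen, so that the sequence next to members that moved apart can be compared. Each is printed 5′ to 3′ on the gene's strand, up to the first annotated exon: chr13:13437352-13437550 on the plus strand, and chr15:102231945-102232185, chr11:95076802-95076964 and chr2:180225860-180226109 on the minus strand. Capitals mark matches, on either strand, to GGGCGG (the GC box) or CATTCC (TEAD factors).
Nid1: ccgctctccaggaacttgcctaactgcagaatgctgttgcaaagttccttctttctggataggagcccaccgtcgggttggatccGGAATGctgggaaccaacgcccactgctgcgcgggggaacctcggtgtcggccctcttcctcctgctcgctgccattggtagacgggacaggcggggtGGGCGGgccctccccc
Itgb7: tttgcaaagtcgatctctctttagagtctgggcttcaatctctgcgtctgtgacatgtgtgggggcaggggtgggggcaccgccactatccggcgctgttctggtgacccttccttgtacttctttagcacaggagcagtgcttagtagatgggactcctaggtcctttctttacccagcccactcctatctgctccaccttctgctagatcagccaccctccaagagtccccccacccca
Itga3: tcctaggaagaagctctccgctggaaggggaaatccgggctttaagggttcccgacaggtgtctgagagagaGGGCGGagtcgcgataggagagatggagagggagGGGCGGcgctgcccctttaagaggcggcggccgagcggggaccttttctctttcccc
Lama5: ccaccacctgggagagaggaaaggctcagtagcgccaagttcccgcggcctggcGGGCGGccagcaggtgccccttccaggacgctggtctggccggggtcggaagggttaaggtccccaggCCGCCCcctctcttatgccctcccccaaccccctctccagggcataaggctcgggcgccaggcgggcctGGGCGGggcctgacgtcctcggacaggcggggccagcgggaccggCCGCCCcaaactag
The GC box occurred 4 times in the 250 printed bases of Lama5 and 2 times in the 163 of Itga3. It occurred 1 time in the 199 printed bases of Nid1 and 0 times in the 241 of Itgb7. In windows of 300 bases the GC box matched 12 of 24 member promoters and 35.9% of 27025 promoters. Among the 12 were members that fell on withdrawal (Itga5, Itgav, Nid1) and members that rose (Itga3, Itgb1, Itgb5, Lama5, Lamb1). The TEAD letters matched 3 of 24 members and 14.6% of all. TTCNNNGAA, the STAT site, matched 2 members (8.47% of all), the CArG box bound by SRF 1 member (1.57% of all), and AAGGTCA (ESRRB) and CTTTGAT (TCF and LEF) 0 members (4.66% and 3.72% of all). In the 4 printed stretches the GC box and the TEAD letters were the only matches of the 6 searched motifs, and they did not overlap.

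Among receptors for laminin, Itga3 (chromosome 11, 95044474 to 95076801) rose and Itga6 (chromosome 2, 71745616 to 71858416) fell. Both pair with Itgb1, and Itga3 prefers the laminins that carry the Lama5 chain. Itga3 was at 52.2, 22.1 and 20.2 CPM with LIF2i, 116, 131 and 150 CPM without it and 159, 99.6 and 121 CPM with CK666. The groups did not overlap, and the rise was 4.57-fold (log2 2.19, SE 0.29, edgeR adjusted p 0.00048). Itga6 was at 548, 280 and 263 CPM with LIF2i and 226, 187 and 132 CPM without it, a 1.93-fold fall (log2 -0.95, SE 0.14, edgeR adjusted p 0.00078; unblocked 0.086; 6.2e-08 to 0.086 over the 18 alternatives). CK666 libraries had 367, 218 and 164 CPM, which overlaps both other groups. In TPM Itga6 stayed above Itga3 in all 9 libraries, while, counting long coding transcripts only, Itga3 was the higher in control replicate 3 without LIF2i (60.6% of both). The share of Itga3 in their sum went from 6.29% ± 2.18 to 36.2% ± 7.97 and was 29.0% ± 5.53 with CK666 (SD, n = 3); with long coding transcripts only it was 9.29%, 48.6% and 40.9% (means of 3).

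Of the 3 protein-coding Itga6 transcripts, the 2 with the higher TPM in every library differ in an exon of 130 bases near the 3′ end (chromosome 2, 71853534 to 71853663), the exon known to switch its cytoplasmic tail between the A form, with it, and the B form, without it. They differ in their first exons and in the length of the last exon as well. The third, Itga6-207, did not exceed 0.639 TPM. The transcript with the exon, Itga6-201, held 16.7%, 6.90% and 12.2% of the TPM of both with LIF2i, 23.9%, 22.7% and 22.5% in controls without it and 23.5%, 29.6% and 14.8% with CK666. The skipped form was the higher one in all 9 libraries. The 2 control groups did not overlap, and the CK666 group overlapped both. These are the authors' divided read estimates over 2 transcripts that share most of their length, with no test.

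Itgb1, the beta chain shared by most matrix receptors, was the most abundant integrin beta gene by TPM in all 9 libraries. It was at 367, 364 and 329 CPM with LIF2i, 562, 456 and 534 CPM without it and 758, 554 and 635 CPM with CK666. It rose 1.46-fold on withdrawal (log2 0.54, SE 0.13, edgeR adjusted p 0.0078). The call was lost without the block (0.070) and without the replicate 3 library of either control group (0.051 and 0.056; 0.00022 to 0.13 over the 18 alternatives). Itgb4, which pairs with Itga6 in hemidesmosomes, was at 6.13 to 16.0 CPM and was not called (log2 -0.22, SE 0.26, edgeR adjusted p 0.52). Itga7, a laminin receptor of muscle, was at 1.58 to 4.02 CPM and was not called either.

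Itga5 and Itgav, alpha chains of receptors for fibronectin and vitronectin, fell on withdrawal. Itga5 pairs with Itgb1 as the classical fibronectin receptor. It went from 120, 106 and 99.6 CPM to 40.4, 71.6 and 69.6 CPM, with 61.0, 74.5 and 73.3 CPM under CK666. Every LIF2i library was above the rest, and the fall was 1.84-fold (log2 -0.88, SE 0.19, edgeR adjusted p 0.0054). Itgav, the alpha chain that binds the RGD tripeptide with several beta chains, was at 65.1, 76.6 and 59.8 CPM with LIF2i and 38.2, 44.1 and 47.5 CPM without it. It fell by 0.64 on the log2 scale (SE 0.14, edgeR adjusted p 0.0062), and lost the call with an effective-length offset (0.19) and without replicate 2 (0.069; 0.0011 to 0.19 over the 18 alternatives). CK666 libraries had 46.3, 68.4 and 59.4 CPM of Itgav.

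The beta partners of Itgav moved apart. Itgb3 was at 26.4, 14.1 and 7.23 CPM with LIF2i, 2.03, 3.37 and 2.05 CPM without it and 2.27, 3.40 and 2.35 CPM with CK666, a 6.02-fold fall (log2 -2.59, SE 0.41, edgeR adjusted p 0.0010). Itgb5, which forms a vitronectin receptor, rose from 29.0, 32.9 and 24.4 CPM to 56.8, 71.2 and 51.9 CPM and stood at 77.0, 61.5 and 93.2 CPM with CK666 (withdrawal log2 1.06, SE 0.20, edgeR adjusted p 0.0026). Neither gene's groups overlapped between LIF2i and control cells without it. Itgb8, whose heterodimer with Itgav activates latent TGF-beta, had 0, 0.05 and 0 CPM with LIF2i, 1.54, 1.87 and 2.59 CPM without it and 1.56, 0.28 and 2.12 CPM with CK666. That is 116 estimated counts against 1 in the 3 libraries with LIF2i, a ratio per total of 117. Its exact 95% counting interval was 20.5 to 4645 and covers counting error only. The edgeR estimate was 6.36 on the log2 scale (SE 1.10, edgeR adjusted p 0.0017), and Itgb8 passed the filter only through libraries without LIF2i. Itgb6 did not pass the filter.

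**Figure D4:**
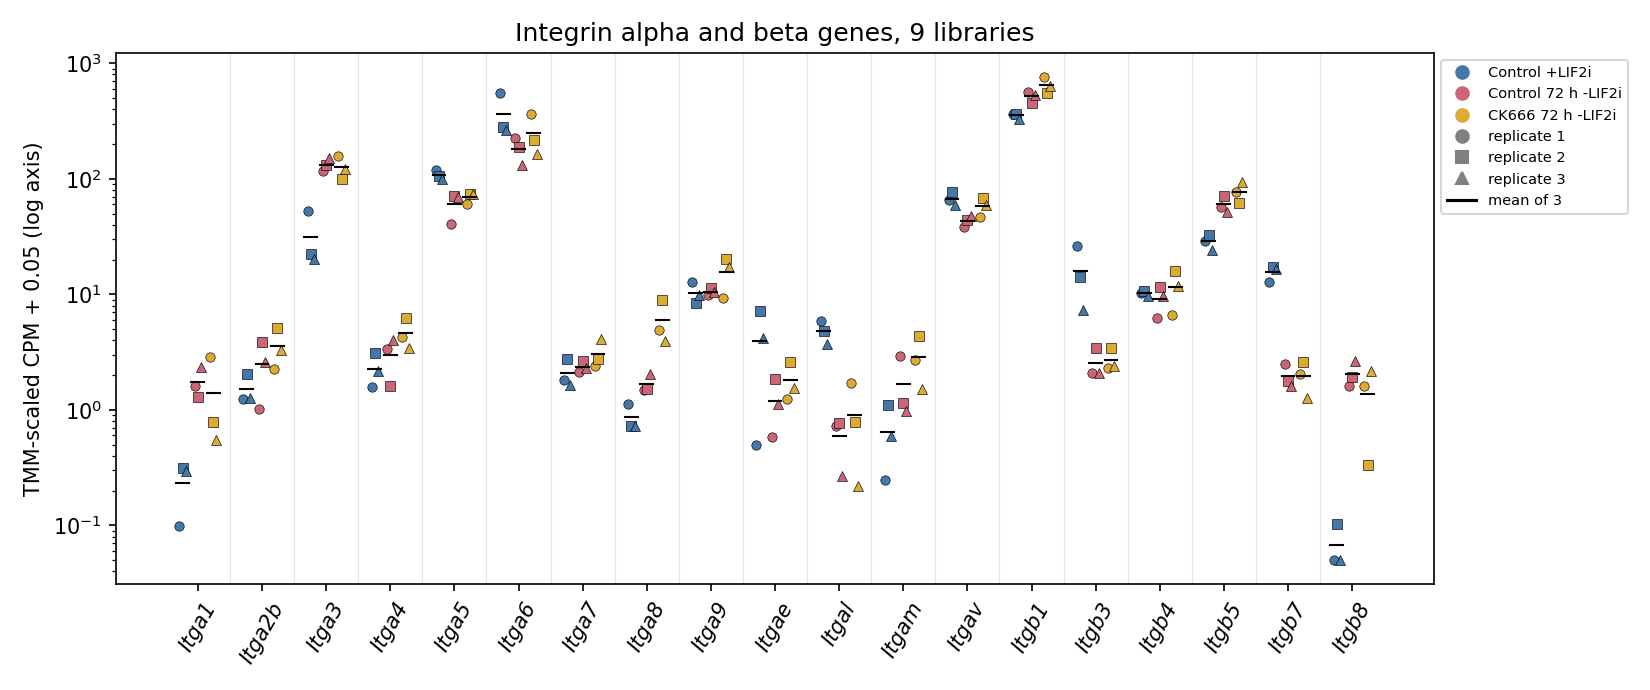
TMM-scaled CPM plus 0.05 (log y axis) of each tested integrin gene (x axis) in the 9 libraries, coloured by group with symbols for replicate numbers and bars for means of 3. Itga3 and Itgb5 lie higher in the controls without LIF2i than with it, Itgb3, Itgb7 and Itgal lower, and Itgb8 sits at or next to the bottom of the plot with LIF2i.

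Collagen-binding integrins were low, and only Itga1 passed the filter. Itga1 went from 0.05, 0.26 and 0.24 CPM with LIF2i to 1.54, 1.25 and 2.32 CPM without it, and was at 2.80, 0.74 and 0.50 CPM with CK666. Its call for withdrawal (log2 3.14, SE 0.89, edgeR adjusted p 0.019) was lost without the LIF2i library of replicate 3 (0.055) or the control library of replicate 2 (0.056) or 3 (0.11) lacking LIF2i (0.0022 to 0.11 over the 18 alternatives). Itga2, Itga10 and Itga11 did not pass the filter, at no more than 0.20, 1.15 and 0.56 CPM in any library. The protocol names gelatin, which is denatured collagen, for all 9 libraries, and its part in the levels of these genes was not tested.

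Itgb7 and Itgal, integrins known from blood cells, fell on withdrawal, while the log2 fold changes of Itga2b and Itgam, also known from blood cells, were 0.60 and 1.48 without a call. Itgb7, a lymphocyte beta chain, was at 12.8, 17.3 and 16.4 CPM with LIF2i, 2.46, 1.71 and 1.57 CPM without it and 1.99, 2.55 and 1.23 CPM with CK666, an 8.13-fold fall (log2 -3.02, SE 0.32, edgeR adjusted p 0.00012). Itgal, the alpha chain of a leukocyte adhesion receptor, went from 5.80, 4.81 and 3.64 CPM to 0.68, 0.73 and 0.22 CPM (log2 -3.27, SE 0.56, edgeR adjusted p 0.0016), with 1.66, 0.74 and 0.17 CPM under CK666. In both genes the LIF2i group lay wholly above the rest. Itgb2, the partner of Itgal in leukocytes, did not pass the filter, at 1.42 CPM or less. The blood cell markers Ptprc, Cd53, Tyrobp and Fcer1g reached no more than 0.19, 0.05, 0.06 and 0.28 CPM in any library. The 6-gene blood list as a whole summed to 77.8 to 181 TPM with LIF2i and 26.0 to 39.4 TPM in controls without it. With CK666 the sum was 16.7 to 26.0 TPM. Laptm5 held most of the sum with LIF2i and fell by 4.87 on the log2 scale (edgeR adjusted p 5.5e-05), and Coro1a, the other tested gene of the list, rose by 2.41 (edgeR adjusted p 6.2e-05). The part of blood-like cells in the fall of Itgb7 and Itgal was not tested. Itgad, Itgax, Itgb6 and Lama2 reached 0.29, 0.06, 0.37 and 0.50 CPM at most and did not pass the filter.

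The tested integrin alpha genes not called for withdrawal were Itga2b, Itga4, Itga7, Itga8, Itga9, Itgae and Itgam, with withdrawal log2 fold changes from -1.48 (Itgae, SE 0.58) to 1.48 (Itgam, SE 0.71). Without replicate 1, Itgae (log2 -1.92, edgeR adjusted p 0.0020; 0.0016 to 0.41 over the 18 alternatives) and Itga2b (1.01, 0.045; 0.045 to 0.70) were called, beside 44.8% of all genes in that fit. Itga8 was called without the LIF2i library of replicate 1 (1.42, edgeR adjusted p 0.040, and 0.040 to 0.95 over the 18 alternatives), among 6267 genes. Itgam shares 68.7% of its exonic bases with an overlapping gene on the same strand, and Itga10 33.5%, so their counts are uncertain.

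CK666 was compared with controls without LIF2i to see whether Arp2/3 inhibition altered these genes during withdrawal. By edgeR 0 of 31 tested members were called. At an unadjusted p under 0.05 there were 7, all raised, beside 19.8% of all tested genes at that level and 10.9% raised. DESeq2 with the block called 3 members, Itga8, Lama1 and Nid1, beside 7.76% of all genes. Values above 0 on the log2 scale were found for 25 of 31 members and for 51.7% of all tested genes. The median was 0.38 over the members and 0.02 over all genes. The groups did not overlap for 2 members, Itga8 and Lamc1, both higher, beside 8.79% of all genes higher and 7.69% lower.

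The members with the smallest adjusted p under CK666 were Nid1, Itga8 and Lama1. Nid1 differed by 0.84 (SE 0.20, edgeR adjusted p 0.063), with the CK666 library above its numbered control in 3 of 3 pairs, although 28.7 CPM in replicate 1 lay below the highest control at 30.8 CPM. Without all replicate 1 libraries the value was 0.96 (edgeR adjusted p 0.0019), and without the block its adjusted p was 0.42 (0.0019 to 0.46 over the 18 alternatives). Itga8, the receptor chain for nephronectin, had 1.08, 0.68 and 0.67 CPM with LIF2i, 1.45, 1.45 and 2.00 CPM in controls without it and 4.83, 8.95 and 3.91 CPM with CK666. Its groups did not overlap, at a log2 difference of 1.79 (SE 0.44, edgeR adjusted p 0.066; 0.032 without replicate 1 and 0.31 without the block; 0.0076 to 0.60 over the 18 alternatives). Lama1 differed by 0.64 (SE 0.16, edgeR adjusted p 0.069; 0.042 without replicate 1 and 0.66 without the block; 0.014 to 0.66 over the 18 alternatives), in 3 of 3 pairs. Without the LIF2i library of replicate 1, Lama1, Nid1, Itga8 and Lamc1 were called, at edgeR adjusted p of 0.026, 0.0044, 0.015 and 0.046. That fit called 1657 genes for CK666, against 299 in the fit of 9 libraries. Lamc1 was at 0.23 in the fit of 9 libraries (0.046 to 0.74 over the 18 alternatives). Without the CK666 library of replicate 1, Nid1 was called (1.06, edgeR adjusted p 0.029), among 406 genes.

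For other abundant chains the CK666 differences against controls were 0.51 (SE 0.25) for Lamb1, 0.31 (SE 0.16) for Lamb2, 0.38 (SE 0.20) for Itgb5, 0.22 (SE 0.19) for Itga5, 0.19 (SE 0.14) for Lama5, 0.41 (SE 0.17) for Lamc1, 0.40 (SE 0.14) for Itga6, 0.41 (SE 0.14) for Itgav, 0.32 (SE 0.13) for Itgb1, 0.01 (SE 0.16) for Nid2 and -0.13 (SE 0.27) for Itga3. Their edgeR adjusted p ran from 0.15 for Itgav to 0.98 for Nid2. An adjusted p above the threshold does not show that CK666 leaves these 11 genes alone. Of all tested members 4, Itga8, Itga9 (0.76, edgeR adjusted p 0.041; 0.54 and 0.35 in the fit of 9 libraries; 0.041 to 0.84 over the 18 alternatives), Lama1 and Nid1, were called without replicate 1, beside 12.3% of all genes in that fit. The sign of the difference turned in at least 1 alternative for Lama5, Itga3, Itga5 and Nid2.

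CK666 cells were also set against self-renewing cells, which asks how far these genes had moved after 72 h with the inhibitor. The comparison shares the libraries with LIF2i with the withdrawal comparison, so the values stand side by side and are not independent. Lama1 was at -3.51 (SE 0.16) on the log2 scale beside -4.14 for withdrawal in controls, Nid1 at -3.33 (SE 0.21) beside -4.17, Lamc1 at -0.87 (SE 0.17) beside -1.28 and Itga6 at -0.54 (SE 0.14) beside -0.95. Lama5 was at 1.15 (SE 0.15) beside 0.96, Lamb1 at 1.49 (SE 0.26) beside 0.98, Itgb1 at 0.86 (SE 0.13) beside 0.54 and Itgb5 at 1.44 (SE 0.20) beside 1.06. All 8 passed here, with edgeR adjusted p from 3.4e-06 (Lama1) to 0.015 (Itga6). Without the block Itga6 and Lamc1 lost this call, at 0.37 and 0.051. Itga6 lost it also without the LIF2i library of replicate 3 or the CK666 library of replicate 2 or 3 (0.060 to 0.080; 0.0027 to 0.37 over the 18 alternatives).

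Itga8, Itga2b and Itgam were called against self-renewal with CK666 and not for withdrawal in controls. Itga8 was at 2.81 (SE 0.47, edgeR adjusted p 0.0015). Itga2b, the platelet alpha chain, had 1.18, 1.99 and 1.21 CPM with LIF2i, 0.96, 3.79 and 2.54 CPM in controls without it and 2.23, 5.04 and 3.24 CPM with CK666. Itgam, a myeloid alpha chain, had 0.20, 1.05 and 0.55 CPM, then 2.89, 1.09 and 0.92 CPM, and 2.65, 4.30 and 1.45 CPM with CK666. Against self-renewal both had CK666 groups that did not overlap. Itga2b was at 1.21 (SE 0.40, edgeR adjusted p 0.039) and held in 6 of 18 alternatives; Itgam was at 2.17 (SE 0.69, edgeR adjusted p 0.034) and held in 8. Itgav and Lamb3 were called for withdrawal and not here, at -0.22 (SE 0.14, edgeR adjusted p 0.24) and 0.97 (SE 0.42, edgeR adjusted p 0.099; 0.0060 without replicate 1, where 41.6% of all genes were called; 0.0060 to 0.51 over the 18 alternatives). By edgeR the direct comparison of CK666 with controls called 0 of these 5, while DESeq2 with the block called Itga8 (1.78, adjusted p 0.0076), as did edgeR with no filter on low counts (adjusted p 0.039) and without replicate 1 or its LIF2i library. For Itga5, called here at -0.66 (SE 0.19, edgeR adjusted p 0.022), leaving out any of the CK666 libraries or the LIF2i library of replicate 1 ended the call (0.061 to 0.079), as did leaving out all libraries of replicate 2 (0.059) or 3 (0.078) or the block (0.072; 0.0066 to 0.079 over the 18 alternatives). Itga1, at 2.66 (SE 0.92, edgeR adjusted p 0.047), held in 7 of 18 alternatives and was at 1.28 without replicate 1 (0.19; 0.012 to 0.19). Itga9, Itgae and Lama4 were not called here (0.55, -0.72 and 0.77, edgeR adjusted p 0.18, 0.35 and 0.15) and were called without replicate 1, at 1.04, -1.45 and 1.15 (0.0033, 0.0084 and 0.040); over the 18 alternatives their adjusted p ran from 0.0033 to 0.77, 0.0084 to 0.88 and 0.035 to 0.62.

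Partners of the basement membrane changed on withdrawal in both directions: of 19 listed genes 17 were tested, 6 raised and 3 lowered, with a median log2 fold change of -0.0023, beside 21.1% of all tested genes raised and 19.7% lowered. Fras1 (4.51, SE 0.34) and Frem2 (1.06, SE 0.15), which form a complex below epithelia, Pxdn (2.19, SE 0.20), which crosslinks type IV collagen, and Col18a1 (1.59, SE 0.14) rose, the highest edgeR adjusted p among them being 0.00048. Hspg2, the proteoglycan perlecan, fell by 0.58 (SE 0.19, edgeR adjusted p 0.031), Sparc by 0.61 (SE 0.18, edgeR adjusted p 0.024) and Col4a1 by 0.78 (SE 0.27, edgeR adjusted p 0.045). CK666 called 0 of the 17, beside 2.04% of all tested genes.

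Of 15 other integrin ligands 11 were tested, with 5 raised and 5 lowered by withdrawal (21.1% and 19.7% of all tested genes). Fn1, fibronectin, was at 2352, 2714 and 2578 CPM with LIF2i, 278, 286 and 268 CPM without it and 534, 640 and 549 CPM with CK666. The 3 groups did not overlap. Fn1 fell by 3.20 (SE 0.13, edgeR adjusted p 1.4e-06) on withdrawal and was 1.04 higher with CK666 than in controls (SE 0.12, edgeR adjusted p 0.011; 0.27 without the block; 7.6e-17 to 0.27 over the 18 alternatives). That call was lost without the control library lacking LIF2i of replicate 2 or 3 (0.11 each) or the CK666 library of replicate 2 (0.085). Vwf fell by 4.93, Spp1 by 4.83 and Icam1 by 2.37 on the log2 scale. Thbs1 rose by 7.13 (SE 1.12), Ccn1 by 4.96 (SE 0.50), Ccn2 by 4.38 (SE 0.19) and Thbs2 by 4.13 (SE 0.50); all 4 encode secreted matricellular proteins, and their highest edgeR adjusted p was 0.0033. Of 6 other laminin receptors Sdc1, a syndecan, was raised (1.06, SE 0.24, edgeR adjusted p 0.0073) and 0 were lowered.

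Adaptors of the integrin tail numbered 30, of which 29 were tested, 9 raised and 8 lowered by withdrawal (21.1% and 19.7% of all tested genes). Fermt1, a kindlin, rose by 3.55 (SE 0.31), Zyx by 2.96 (SE 0.24), Bcar1 by 2.17 (SE 0.16) and Parva by 1.86 (SE 0.20). Tns1, a tensin, fell by 3.18 (SE 0.29), Parvb by 1.35 (SE 0.18), Src by 0.80 (SE 0.11) and Actn1, an alpha-actinin, by 0.54 (SE 0.15). The highest edgeR adjusted p of these 8 was 0.015, that of Actn1. CK666, beside 2.04% of all tested genes called, lowered Tns2 by 1.19 (SE 0.21, edgeR adjusted p 0.031) and Vcl, vinculin, by 1.07 (SE 0.21, edgeR adjusted p 0.041), and raised Tln2, a talin, by 0.64 (SE 0.13, edgeR adjusted p 0.041). Without the block these 3 were at adjusted p of 0.37, 0.30 and 0.69. All 3 calls were lost without any 1 of the CK666 libraries, the replicate 2 or 3 control lacking LIF2i or the replicate 3 library with LIF2i, at 0.051 to 0.25, and without all libraries of replicate 2 or 3, at 0.28 to 0.37. Tns2 and Tln2 were lost with the effective-length offset (0.084 and 0.070) and without the replicate 1 control lacking LIF2i (0.064 and 0.099), and Vcl without the LIF2i library of replicate 2 (0.0545). Over the 18 alternatives the adjusted p of the 3 genes ran from 0.00011 to 0.69.

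Primitive and parietal endoderm, which makes much laminin in the embryo, was checked through 14 markers. Their sum was 12.7 to 46.3 TPM with LIF2i, 18.1 to 48.3 TPM in controls without it and 16.6 to 32.5 TPM with CK666; 3 of 10 tested markers rose on withdrawal (Dab2, Cubn and Amn), Hnf4a fell, and 0 were called for CK666, beside 21.1%, 19.7% and 2.04% of all tested genes. Gata6, Sox17 and Foxa2, which define endoderm, did not exceed 1.81, 0.575 and 0.85 CPM in any library. Other genes of the list were higher: Gata4, a factor of primitive endoderm, was at 3.58 to 13.2 CPM and was not called for withdrawal, and Dab2, Cubn and Hnf4a reached 34.2, 20.7 and 11.6 CPM. The fibroblast list of 8 genes summed to 6.34 to 13.4 TPM with LIF2i, 25.2 to 34.8 TPM without it and 16.0 to 25.7 TPM with CK666, with 4 of 6 tested genes raised on withdrawal (21.1% of all tested genes). The trophoblast list of 7 went from between 65.3 and 103 TPM to between 176 and 389 TPM in controls without LIF2i, mostly Krt8 and Krt18, while Tfap2c, high with LIF2i, fell by 4.29 (edgeR adjusted p 1.8e-05). The endothelial list of 5 went from between 78.6 and 110 TPM to between 6.71 and 11.5 TPM in controls without LIF2i, mostly Pecam1. Cdh5, Kdr and Tie1 of that list did not exceed 0.28, 0.93 and 1.25 CPM, and Tek was at 2.68 to 14.2 CPM. The mesoderm list of 6 stayed at 10.9 TPM or less in all 9 libraries. The part of these cell types in the changes of the integrin, laminin and nidogen genes was not tested.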

How the data were processed

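Poly-A RNA of 9 cultures was sequenced, 3 per group. Per the file headers, the authors deposited estimated counts and TPM for 119414 Ensembl transcripts per library; the deposited estimated counts are not normalised, and the authors scaled TPM within each library after division by the deposited effective length. The submitters' processing notes name FastQC, cutadapt 1.8.1, kallisto and sleuth and the builds GRCh38 and mm10; the transcript release and strand use are not given in the sources used here. Transcripts were mapped by identifier to GENCODE M21 (GRCm38): 116640 (97.7%) matched, and the rest held 0.895% to 1.08% of a library's counts and were left out. Gene sums of estimated counts were rounded to whole numbers and tested with edgeR 4.0.16 (R 4.3.3): TMM scaling, filterByExpr, robust quasi-likelihood test, 1 fit over 9 libraries with replicate number as a block, 4 residual degrees of freedom, Benjamini-Hochberg adjustment over 14648 genes. The design text calls the biological replicates paired and the titles number them. Deviations from group means correlated at 0.30 to 0.65 across genes between same-numbered libraries. Between unlike-numbered libraries the correlation was 0.21 to 0.29 for replicates 2 and 3, and -0.53 to -0.35 with replicate 1. Nothing says how separate the cultures were, so p-values measure the spread between these samples. SE came from the test statistic; CPM means carry SD. The 3 counts taken as a floor equal 0.133 to 0.178 CPM of the library totals before TMM scaling, for counting error only. Alternatives were RLE or upper-quartile scaling, no filter, DESeq2 1.42.0, no block, an effective-length offset and left-out libraries. The fit was tested on simulated data. Full values are given for members called in at least 1 comparison, except 1 that is not reported here, and up to 4 called genes per direction of each partner list, leaving out those under 1 in mean log2 CPM. The members and lists were chosen with earlier results of these data known. Exonic bases shared with other genes were counted for every member.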

Additional observations from a re-analysis of the deposited data

How the results depend on the processing

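RLE and upper-quartile scaling kept the 21 member calls of withdrawal, the 0 of CK666 and the 22 of CK666 against self-renewal. Without the replicate block, 3509 genes were called for withdrawal (5967 with it), 0 with CK666 against controls (299) and 2966 between CK666 and self-renewal (5408), and 17, 0 and 17 members. For CK666, 565 genes and 3 members were called with no filter on low counts, 1136 and 3 with DESeq2, and 149 and 0 with an effective-length offset. Leaving out libraries or replicate numbers gave 3099 to 6587, 0 to 1813 and 2412 to 6127 genes, and 16 to 23, 0 to 4 and 15 to 25 members. The cause was not tested.

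Signs that turned belong to values without a call. With the effective-length offset, log2 values were -0.10 for Itga7 on withdrawal. For CK666 they were 0.28 for Itga1, -0.65 for Itga2b, -0.12 for Itgb4, -0.62 for Lama4, -0.060 for Lama5, 0.50 for Lamb3 and -0.078 for Nid2. Against self-renewal they were 0.086 for Itgav and -0.38 for Itgb4. Nid2 under CK666 was -0.0043 with RLE scaling and -0.0043 with DESeq2, and Itgb7 0.0053 without the replicate block. Left-out libraries gave, for withdrawal, -0.039 to 0.45 (Itga7), -0.23 to 0.43 (Itga9), -0.41 to 0.13 (Itgb4) and -0.0065 to 2.34 (Lamc3). For CK666 they gave -1.70 to 0.25 (Itga1), -0.49 to 0.10 (Itga3), -0.035 to 0.35 (Itga5), -0.16 to 0.88 (Itgal), -0.21 to 0.38 (Itgb3), -0.34 to 0.25 (Itgb7), -0.040 to 0.33 (Lama4), -0.57 to 0.086 (Lamb3) and -0.19 to 0.16 (Nid2). Against self-renewal they gave -0.20 to 0.45 (Itgb4). Shares from coding transcripts of at least 1000 bases, an alternative chosen after seeing the data, were 35.9%, 75.3% and 77.6% for Lamb1 of both beta genes in the 3 groups. At these totals, members under the floor of 3 counts in a library cannot be ranked.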
